A study of Mus musculus with 4 samples.

Results

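The genes described here are the digestive enzymes of the pancreatic acinar cell, the proteins that travel with them in its zymogen granules, and 4 transcription factors that keep the acinar state. They were chosen by name, as 36 gene symbols. Their probes were those that the scanner files give 1 of these names, with 1 probe per gene, the brightest over the 4 arrays. This found a probe for 34 of the 36, of 34797 gene names in the files. Prss3 and Try10, both trypsinogens, have no probe under their own name.

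Acinar cells make up most of the pancreas and surround the islets. They synthesise inactive precursors of proteases together with lipases, amylase and nucleases, pack them into zymogen granules at the apical membrane, and release them into the ducts when a meal raises cholecystokinin and acetylcholine. The enzyme genes are driven by the trimeric factor PTF1, in which Ptf1a pairs with a common E protein and with Rbpjl, the acinar form of the Notch effector Rbpj. Nr5a2 and Bhlha15 (Mist1) act beside it, on enzyme genes and on granule formation. Acinar tissue is what the digestion and the density gradient of an islet isolation are meant to remove.

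The RNA came from islets of C57BL/6 mice aged 24 weeks, with 1 array for each of 4 groups. The groups are males of the wild type (male WT), transgenic males labelled diabetic (male Tg), transgenic males given an implant of E2, the common abbreviation for estradiol, and profiled 6 weeks later (male Tg E2), and females that carry the transgene (female Tg). The labels name neither the transgene nor its promoter and do not say how many mice gave the RNA of an array. A wild-type female group and an implant without E2 were not analysed here. Per the labels, the pancreas was perfused with collagenase, the islets were separated on a density gradient and picked by hand under a microscope.

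With 1 array per group no difference has a replicate check, no test between conditions was possible and no p-value is given. Each difference is therefore one between 2 single preparations. A level is the log2 processed Cy3 intensity of a gene's probe minus the 75th percentile of its array, so 0 is the brightness of a probe at that percentile. The error given with a difference is the standard error from the scanner software's error model, whose median over the 34 genes was 0.204 log2, and it covers the measurement but not the spread between mice. Of 59305 non-control spots per array, 49.9% to 54.8% were well above background, and no spot was saturated. All 34 acinar genes were well above background on all 4 arrays, so each had a measured value in every comparison. The beta cell markers were likewise detected on every array (12 of 12), and their summed level lay between 2285 and 2982 times the 75th percentile. The median level of these markers was 6.40 on male WT, 3.99 on male Tg, 5.27 on male Tg E2 and 5.46 on female Tg.

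On all 34 probes the male Tg array was the highest and the male Tg E2 array the second, while after quantile normalization male Tg was the highest for 32. The median level was 4.73 on male WT, 9.40 on male Tg, 8.48 on male Tg E2 and 4.97 on female Tg. The 34 probes held 0.796% of all processed intensity on male WT, 7.69% on male Tg, 5.24% on male Tg E2 and 0.886% on female Tg. The lowest array was male WT for 23 genes and female Tg for the other 11. In such bulk RNA, more acinar cells in a preparation and more acinar RNA per cell cannot be told apart.

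**Figure D1:**
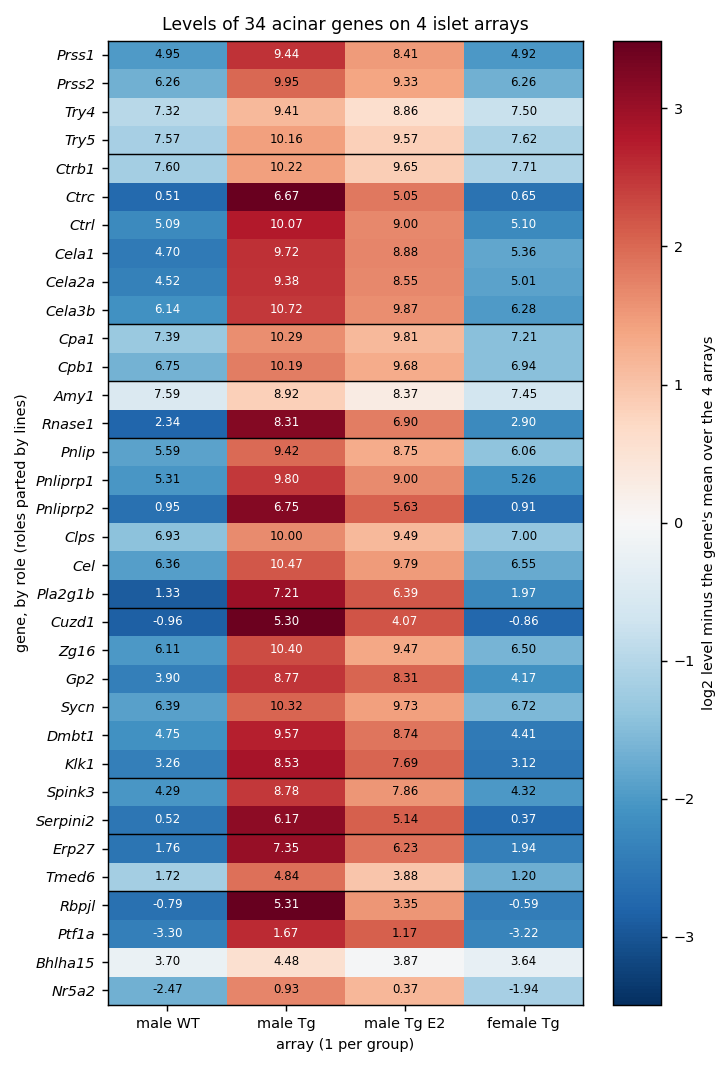
Each row is 1 of the 34 acinar genes, grouped by role, and each column 1 array; the printed number is the log2 level above the array's 75th percentile, and the colour is that level minus the gene's own mean over the 4 arrays. In every row the male Tg array is the highest and the male Tg E2 array the second, while male WT and female Tg lie within 0.66 log2 of each other.

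In male Tg over male WT, 33 of the 34 genes were at least 2-fold higher and none was at least 2-fold lower. Among the 14342 genes measured in this pair, 15.5% passed 2-fold upwards and 9.06% downwards. The median difference of the acinar genes was 4.49 log2, from 0.78 for Bhlha15 to 6.26 for Cuzd1, against a median of -0.22 over all genes measured. All 34 differences exceeded 2 standard errors.

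The trypsinogens, precursors of the protease that activates the other zymogens, had the smallest median among the protease groups, 3.13 log2 over 4 genes. Prss1 stood at 4.95 on male WT, 9.44 on male Tg, 8.41 on male Tg E2 and 4.92 on female Tg, so that male Tg was 22.5-fold above male WT (4.49 ± 0.204 log2). Try4 had levels of 7.32, 9.41, 8.86 and 7.50 in the same order of arrays, a 4.28-fold difference. Male Tg and male Tg E2 were the highest and the second array for both genes, at a smaller distance from the other arrays for Try4. Prss2 (3.68 log2) and Try5 (2.59 log2) lay between them.

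Trypsinogen genes are related copies that lie near each other, and the 4 probes fall within chr6:41255472-41473996 (mm9). A probe can therefore bind RNA of a neighbour where the bases agree, and the likeness differs between pairs. The probes of Try4 and Try5 share an unbroken run of 31 bases, and the Try4 probe carries RefSeq transcripts of both genes. The Prss1 probe shares a run of 35 bases with a probe named Gm5409 that lists the transcript of Try10. The other Prss1 probe, at chr6:41412628-41412687 on the plus strand, and the Prss2 probe, at chr6:41473937-41473996 on the plus strand, agree in 36 of the 49 bases over which they align. They are shown with the agreeing bases in capitals to let the likeness of 2 trypsinogen probes be seen, whereas the chosen Prss1 probe shares no run over 6 bases with the Prss2 probe:
Prss1: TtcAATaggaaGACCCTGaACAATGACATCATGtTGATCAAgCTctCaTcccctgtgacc
Prss2: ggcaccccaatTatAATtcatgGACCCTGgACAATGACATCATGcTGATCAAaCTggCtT
On that second Prss1 probe male Tg was 5.33 log2 above male WT, compared with 4.49 on the chosen one. The longest run shared by the pair is 14 bases.

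The probe named Gm10334 lists the RefSeq transcript of Prss3, and had levels of 2.80 on male WT, 9.14 on male Tg, 6.73 on male Tg E2 and 2.75 on female Tg. The Gm5409 probe, with the Try10 transcript, had levels of -0.24, 6.52, 4.38 and -0.25. Both were highest on male Tg and second on male Tg E2, like the 4 named trypsinogens, with a lower value on male Tg E2 relative to male Tg than any of them.

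Chymotrypsinogens and elastases, which trypsin activates in the gut, were higher in male Tg in 6 of 6 genes with a median of 4.92 log2. Ctrc, chymotrypsin C, which also degrades trypsinogen, had levels of 0.51 on male WT, 6.67 on male Tg, 5.05 on male Tg E2 and 0.65 on female Tg. That is 71.8-fold from male WT to male Tg (6.17 ± 0.204 log2). Ctrb1 had the smallest difference of the group, 6.14-fold, from 7.60 on male WT to 10.22 on male Tg, with 9.65 on male Tg E2 and 7.71 on female Tg. The elastase genes Cela1, Cela2a and Cela3b lay close together, at 5.02, 4.86 and 4.58 log2.

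The carboxypeptidases trim the peptides that the endoproteases release. Cpb1 was 3.44 log2 higher and Cpa1 2.90 log2 higher in male Tg than in male WT. Cpa1 stood at 7.39 on male WT, 10.29 on male Tg, 9.81 on male Tg E2 and 7.21 on female Tg. Cpb1 stood at 6.75, 10.19, 9.68 and 6.94.

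Amylase and the pancreatic ribonuclease were at opposite ends of the range. Amy1 had levels of 7.59 on male WT, 8.92 on male Tg, 8.37 on male Tg E2 and 7.45 on female Tg, a 2.51-fold difference between the first pair of arrays that was under 2-fold after quantile normalization or median centring (lowest value over the alternatives 0.67 log2). Rnase1 had levels of 2.34, 8.31, 6.90 and 2.90, a 62.6-fold difference. Amy1 is the salivary and liver form by name, it shares long stretches with the pancreatic Amy2 copies, and the deposited values do not tell which copy bound. A further amylase probe outside the 34 genes, Amy2a5, was 0.75 log2 higher in male Tg than in male WT. Another, Amy2a4, was not above background on male WT and was at least 5.81 log2 higher in male Tg. Its levels were 1.38 on male Tg, -0.06 on male Tg E2 and -3.17 on female Tg.

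Of the lipases and their cofactors, 6 of 6 were higher in male Tg, with a median of 4.30 log2. Pla2g1b, the secreted pancreatic phospholipase A2, stood at 1.33 on male WT, 7.21 on male Tg, 6.39 on male Tg E2 and 1.97 on female Tg (58.6-fold in male Tg over male WT). Clps, colipase, which anchors the lipase to fat droplets, stood at 6.93 on male WT and 9.49 on male Tg E2, with male Tg 3.07 log2 and female Tg 0.07 log2 above male WT, and had the smallest difference, 8.41-fold in male Tg over male WT. For Clps the choice of probe mattered, since its dimmer probe gave 5.24 log2 where the chosen one gave 3.07 log2. Pnlip, Pnliprp1 and Pnliprp2, which lie within chr19:58755296-58848619 (mm9), differed by 3.83, 4.49 and 5.80 log2.

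The granule and secreted proteins were higher in male Tg in 6 of 6 genes, with a median of 4.84 log2. Cuzd1, a zymogen granule membrane protein, had the largest difference of all 34 genes, with levels of -0.96 on male WT, 5.30 on male Tg, 4.07 on male Tg E2 and -0.86 on female Tg. This was 76.5-fold in male Tg over male WT (6.26 ± 0.207 log2). Sycn, syncollin of the granule membrane, had the smallest of the group, with levels of 6.39, 10.32, 9.73 and 6.72. Gp2, the main glycoprotein of that membrane, Zg16, Klk1, a tissue kallikrein, and Dmbt1 lay between 4.28 and 5.27 log2.

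The genes of the inhibitor group were also higher in male Tg. Spink3, the trypsin inhibitor of the granule, had levels of 4.29 on male WT, 8.78 on male Tg, 7.86 on male Tg E2 and 4.32 on female Tg. Serpini2, a pancreatic serpin, had levels of 0.52, 6.17, 5.14 and 0.37. Male Tg was above male WT by 4.49 log2 for Spink3 and 5.66 log2 for Serpini2.

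In the secretory pathway, Erp27, a chaperone of the endoplasmic reticulum abundant in the acinar cell, stood at 1.76 on male WT, 7.35 on male Tg, 6.23 on male Tg E2 and 1.94 on female Tg. Tmed6, a protein of the early secretory pathway, stood at 1.72, 4.84, 3.88 and 1.20. Male Tg exceeded male WT by 5.59 and 3.12 log2.

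The 4 transcription factors differed in size of change between the arrays. Rbpjl had levels of -0.79 on male WT, 5.31 on male Tg, 3.35 on male Tg E2 and -0.59 on female Tg, 68.6-fold from male WT to male Tg (6.10 ± 0.206 log2). Ptf1a had levels of -3.30, 1.67, 1.17 and -3.22, a 31.4-fold difference (4.97 ± 0.254 log2), which was 3.38 log2 after normexp with quantile normalization. Nr5a2, an orphan nuclear receptor, had levels of -2.47, 0.93, 0.37 and -1.94, a 10.5-fold difference (3.40 log2, and 2.47 log2 in that same setting). Bhlha15 had levels of 3.70, 4.48, 3.87 and 3.64, and its difference of 1.72-fold (0.78 ± 0.204 log2) was the only one of the 34 under 2-fold. Male Tg was nonetheless the highest array for all 4 factors.

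PTF1 is known to bind a site that joins an E box to a box of the Rbpj type about a helical turn away, so the 250 bases before the start sites were read from RefSeq (GRCm38.p6) for the 27 acinar genes with an entry, 29 windows in all. The E box CACCTG, sought on both strands, was in 16 of the 29 windows (55.2%) and in 17.2% of the 32851 windows of the whole table. The Rbpj-type box TTTCCC, on both strands, was in 24.1% of the acinar windows and in 21.9% of all. Both strings of letters together were in 5 windows (17.2%), those of Cel, Cela1, Cela2a, Prss1 and Prss2, and in 3.61% of all. The TATA box TATAAA, on the sense strand, was in 24.1% and 7.59%, and TCAAGGTC, a site of the Nr5a type sought on both strands, in the window of Rbpjl alone among the acinar genes and in 0.935% of all. None of these 4 motifs holds another. A match is a description of the letters and not a site shown to be bound.

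In 2 of the windows, Cela1 and Prss1, an E box and an Rbpj-type box start 10 bases apart. They are printed with Rbpjl, which holds both an E box and the Nr5a-type letters, and Bhlha15, the gene with the smallest difference, which holds 2 E boxes. Capitals mark every match to the 4 motifs, as printed or as the reverse complement:
Cela1 (chr15:100687921-100688170, minus strand): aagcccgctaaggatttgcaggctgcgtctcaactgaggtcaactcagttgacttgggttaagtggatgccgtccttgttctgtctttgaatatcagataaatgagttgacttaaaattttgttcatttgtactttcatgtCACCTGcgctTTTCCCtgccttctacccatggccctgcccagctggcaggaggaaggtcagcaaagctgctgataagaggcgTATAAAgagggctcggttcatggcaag
Prss1 (chr6:41458680-41458929, plus strand): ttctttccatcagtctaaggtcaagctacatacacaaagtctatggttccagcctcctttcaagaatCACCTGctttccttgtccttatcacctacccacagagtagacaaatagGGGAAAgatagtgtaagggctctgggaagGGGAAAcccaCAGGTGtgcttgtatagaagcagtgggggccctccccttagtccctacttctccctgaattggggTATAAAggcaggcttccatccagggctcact
Rbpjl (chr2:164402944-164403193, plus strand): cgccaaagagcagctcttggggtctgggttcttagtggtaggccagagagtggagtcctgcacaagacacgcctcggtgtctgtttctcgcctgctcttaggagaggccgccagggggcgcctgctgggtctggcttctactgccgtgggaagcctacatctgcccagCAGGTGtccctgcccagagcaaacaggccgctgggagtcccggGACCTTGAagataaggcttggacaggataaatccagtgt
Bhlha15 (chr5:144190036-144190285, plus strand): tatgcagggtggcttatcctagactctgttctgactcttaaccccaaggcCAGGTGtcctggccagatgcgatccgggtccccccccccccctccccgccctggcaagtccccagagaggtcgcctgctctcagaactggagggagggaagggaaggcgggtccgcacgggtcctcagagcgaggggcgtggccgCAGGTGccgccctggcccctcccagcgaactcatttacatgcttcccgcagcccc
An E box thus occurs before Rbpjl and before Bhlha15, while Cuzd1, the gene with the largest difference, has none in its window. Neither window of Amy1 holds an E box. Whether the motif goes with the size of the difference was not tested.

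The size of the difference went with the brightness of the probe on female Tg, an array outside the comparison. Across the 34 genes, this level and the difference between male Tg and male WT had a Spearman correlation of -0.69 and a Pearson correlation of -0.56. Female Tg lay within 0.66 log2 of male WT on each of these genes, so it is not independent of the level subtracted. Genes are not replicates, and this is a description. The 17 genes with the brighter probes (levels of 5.01 to 7.71 on female Tg) had a median difference of 3.83 log2, and the 17 with the dimmer ones 5.27 log2. Bhlha15 and Tmed6 lay below the other genes of their brightness, and the dimmest probes, Ptf1a and Nr5a2, did not have the largest differences. Whether the brightest spots understate a difference was not tested, and no spot was saturated.

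**Figure D2:**
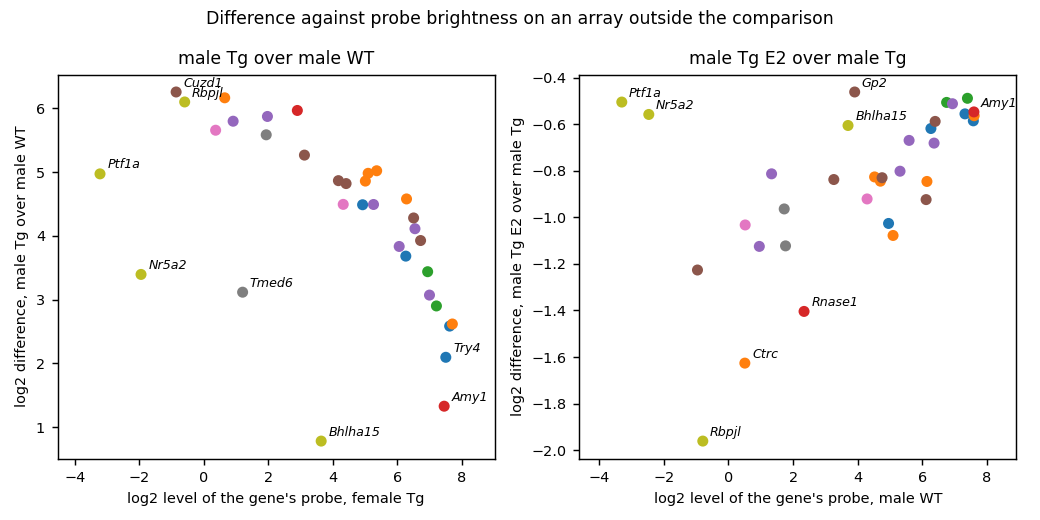
Each point is 1 of the 34 acinar genes, coloured by role as in the plot of differences; the x axis is the log2 level of its probe on an array outside the comparison (female Tg on the left, male WT on the right) and the y axis the log2 difference. On the left the differences shrink from 6.26 for Cuzd1 to 1.33 for Amy1 as the probes get brighter, with Bhlha15, Tmed6 and Nr5a2 apart, and on the right Rbpjl has the largest decrease.

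Male Tg E2 lay between male Tg and male WT on every gene, and on the log2 scale nearer to male Tg except for Bhlha15. In male Tg E2 over male Tg, 9 of 34 genes were at least 2-fold lower and none at least 2-fold higher, beside 7.95% lower and 2.6% higher among all 14575 genes measured. The median difference was -0.82 log2, against 0.13 over all genes measured and -0.11 over the 360 other genes with a mean level of at least 6, a floor chosen after values were seen. In log2 units, the difference between male Tg E2 and male WT was a median of 81.6% of that between male Tg and male WT. This share ran from 22.5% for Bhlha15 to 90.5% for Gp2. On the linear scale, the summed level of the 34 genes was 1.65-fold lower on male Tg E2 than on male Tg.

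Rbpjl had the largest difference between the treated and untreated transgenic males, 3.89-fold lower with E2 (-1.96 ± 0.204 log2, and -1.86 log2 on its other probe). Its partner Ptf1a was 1.42-fold lower (-0.51 log2), Nr5a2 1.47-fold lower and Bhlha15 1.52-fold lower. For Nr5a2 the difference was -0.56 log2 on the chosen probe and -0.08 log2 on its dimmer other probe. Ctrc was 3.09-fold and Rnase1 2.65-fold lower with E2. The smallest differences were those of Gp2 (levels of 3.90, 8.77, 8.31 and 4.17 from male WT to female Tg), 1.38-fold, and Cpa1, 1.40-fold.

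The other genes at least 2-fold lower with E2 were Cuzd1 (-1.23 log2), Pnliprp2 (-1.12), Erp27 (-1.12), Ctrl (-1.08), Serpini2 (-1.03) and Prss1 (-1.03). By role they were 2 of the 6 chymotrypsinogens and elastases, 1 of the 4 trypsinogens, 1 of the 6 lipases, 1 of the 6 granule proteins, 1 each among the inhibitors, the secretory pathway, the transcription factors and the pair of amylase and ribonuclease, and none of the carboxypeptidases. The count depends on the scaling: after quantile normalization 4 genes remained at least 2-fold lower, Rbpjl, Ctrc, Rnase1 and Cuzd1, the median was -0.39 log2, and Cpa1 and Cpb1 stood slightly above their male Tg level. Brightness also went with this difference, with a Spearman correlation of 0.53 across the 34 genes between the male WT level and the difference.

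Set against male WT, 32 of 34 genes were at least 2-fold higher in male Tg E2, beside 8.77% higher and 2.69% lower among 14542 genes. The median difference was 3.63 log2. Pla2g1b (5.06 log2), Cuzd1 (5.03 log2) and Pnliprp2 (4.67 log2) had the largest differences. Pnliprp2, a lipase-related protein, had levels of 0.95 on male WT, 6.75 on male Tg, 5.63 on male Tg E2 and 0.91 on female Tg. Amy1 (0.78 log2) and Bhlha15 (0.18 log2, within 1 standard error of 0 and below 0 after median centring) were the ones under 2-fold.

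Female Tg stood near male WT. In female Tg over male WT no acinar gene differed by 2-fold or more, beside 7.63% higher and 3.52% lower among 14177 genes. The median difference was 0.10 log2, 23 genes were above 0 and 11 below, and 7 differed by more than 2 standard errors. Cela1 was the highest of these, with levels of 4.70 on male WT and 5.36 on female Tg (1.58-fold, 0.66 ± 0.204 log2), followed by Pla2g1b (0.64 log2) and Rnase1 (0.56 log2). Tmed6 (-0.52 log2), Dmbt1 (-0.34 log2) and Cpa1 (-0.18 log2) were the lowest. Prss2 had 6.26 on both arrays, and Ctrl 5.09 and 5.10. The signs of such small differences turn with the scaling, with 10 genes above 0 after median centring and 28 after quantile normalization.

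**Figure D3:**
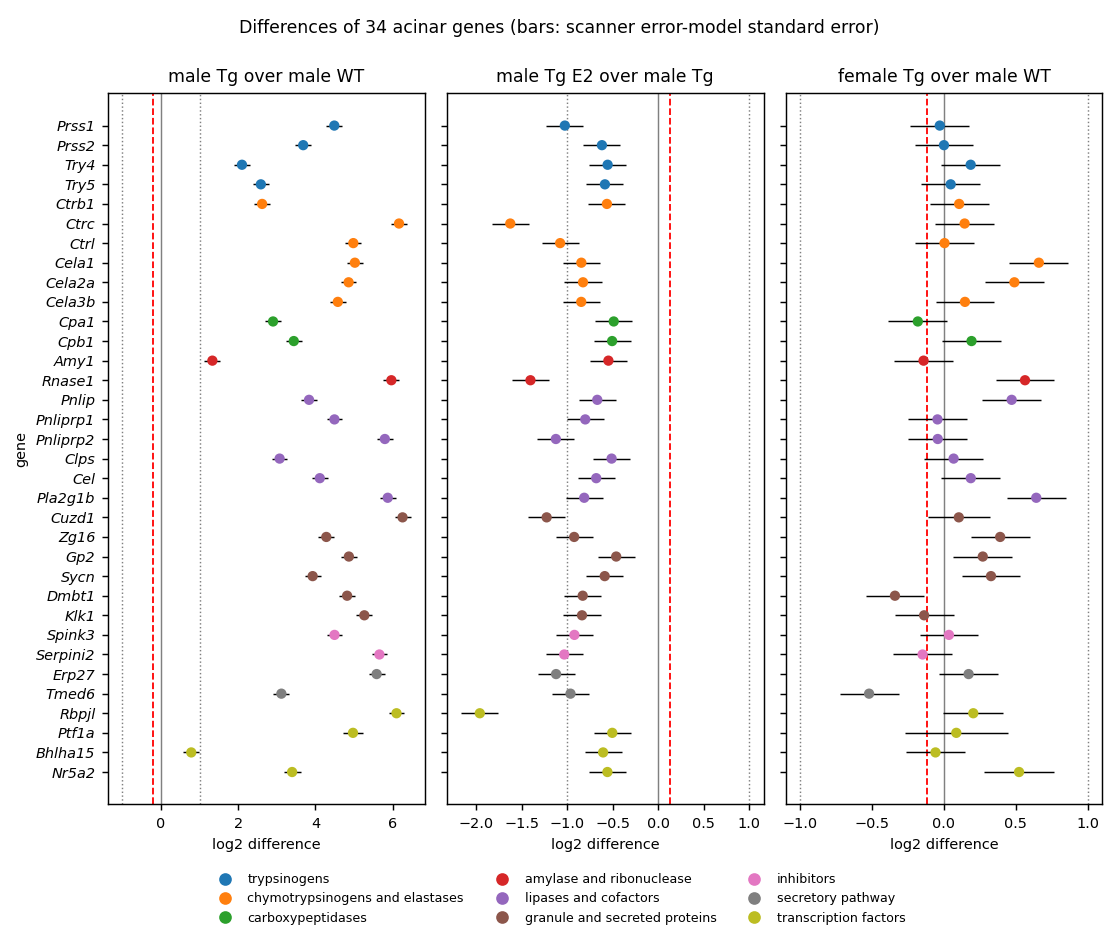
Each point is the log2 difference of 1 of the 34 acinar genes, coloured by role, with the scanner error-model standard error as a bar; the red dashed line is the median over all genes measured and the dotted lines mark 2-fold. From left to right the genes lie at 0.78 to 6.26 (male Tg over male WT), at -1.96 to -0.46 (male Tg E2 over male Tg) and at -0.52 to 0.66 (female Tg over male WT), and the 3 panels have different x scales.

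The female Tg array was accordingly far below the male Tg array. In female Tg over male Tg, 33 of 34 genes were at least 2-fold lower and none higher, beside 8.47% lower and 3.64% higher among 14166 genes. The median was -4.40 log2. Cuzd1 (71.2-fold lower), Ctrc (65.0-fold) and Rbpjl (59.6-fold) had the largest differences, and Bhlha15 (1.79-fold), Amy1 (2.77-fold) and Try4 (3.76-fold) the smallest. This comparison and the one with male WT share the male Tg array, so their values are given side by side and not as support for each other.

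Female Tg over male Tg E2 shares no array with male Tg over male WT. Here 32 of 34 genes were at least 2-fold lower and none higher, beside 4.36% lower and 3.22% higher among 14248 genes, with a median of -3.53 log2. Cuzd1 (-4.93 log2), Serpini2 (-4.77 log2) and Pnliprp2 (-4.72 log2) had the largest differences. Bhlha15 (-0.23 log2), Amy1 (-0.92 log2) and Try4 (-1.35 log2) had the smallest.

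Further genes outside the 34 were examined in 4 lists, drawn up by name for the acinar programme. In the list of other secreted proteins 13 genes had a probe, and 8 were measured in male Tg over male WT. Of these 8, 5 were at least 2-fold higher and none lower, with a median of 4.79 log2. Not all genes of this list are particular to the acinar cell. Gp6 (0.97 log2) and Fgl1 (-0.34 log2) were among the 3 that differed by less than 2-fold. The probe named 1810009J06Rik had the largest difference of any gene listed here, with levels of -2.99 on male WT, 6.13 on male Tg, 5.65 on male Tg E2 and -0.07 on female Tg (9.12 log2 in male Tg over male WT). It was also 2.92 log2 higher in female Tg than in male WT, a comparison in which no gene of the 34 reached 2-fold. The probe named 2210010C04Rik was 6.36 log2 higher in male Tg than in male WT.

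Of 17 measured receptor and exocytosis genes, 3 were at least 2-fold higher in male Tg than in male WT and 2 at least 2-fold lower, shares near the 15.5% and 9.06% over all genes, with a median of -0.21 log2. Cckar, the cholecystokinin receptor of the acinar cell, had levels of -2.99 on male WT, 2.71 on male Tg, 1.99 on male Tg E2 and -1.97 on female Tg. Rab27b (2.29 log2) and Rab26 (2.05 log2), small GTPases of the granule, were the other higher ones. The muscarinic receptor Chrm3 (-1.42 log2) and complexin Cplx2 (-1.05 log2), both also used by beta cells, were lower. Rab3d, another granule GTPase, differed by -0.11 log2.

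Of 18 measured accessory genes 10 were at least 2-fold higher in male Tg than in male WT and none lower, with a median of 1.56 log2. The water channel Aqp12 stood at -1.94 on male WT, 4.13 on male Tg, 2.78 on male Tg E2 and -1.72 on female Tg. Pdia2, the pancreatic disulfide isomerase, was 5.90 log2 higher, Aqp8 5.06 log2 and the gap junction gene Gjb2 4.93 log2. The other 8 measured genes of this list differed by less than 2-fold, Xbp1 (0.03 log2) and Hspa5 (0.07 log2) among them.

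Among 11 measured transcription factors outside the 34, Onecut1 (3.83 log2) and Gata4 (3.55 log2) were at least 2-fold higher in male Tg than in male WT and Foxa2 (-1.14 log2) lower, counts again near the 15.5% and 9.06% over all genes, with a median of -0.19 log2. Gata4, which takes part in pancreas formation, had levels of -2.83 on male WT, 0.72 on male Tg, -0.94 on male Tg E2 and -2.78 on female Tg. Rbpj, the general relative of Rbpjl, differed by -0.59 log2.

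Markers of other cell types also differed between the arrays, and their part in the acinar values was not tested. Summed over their probes, in units of the 75th percentile, the acinar genes stood at 1824 on male WT, 21582 on male Tg, 13105 on male Tg E2 and 1952 on female Tg, and the other lists follow in that order. Ductal markers stood at 34.1, 263, 157 and 51.4, with 5 of 10 measured genes at least 2-fold higher in male Tg than in male WT. Tff2 (5.84 log2) and Car2 (3.87 log2) led that list. The duct genes Sox9 and Muc1 were not above background on male WT, and neither these nor Cftr were on female Tg.

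Stellate cell and matrix markers stood at 51.2, 214, 190 and 121, with 7 of 7 measured genes higher in male Tg than in male WT and Col1a1 at 4.51 log2. Lymphocyte markers stood at 10.04, 76.9, 18.3 and 52.9. In male Tg over male WT 6 of 7 were at least 2-fold higher, with Igj at 4.49 log2, while Cd3e was at -0.41 log2. Red cell markers stood at 104, 489, 47.0 and 144. Adipocyte markers stood at 3.12, 15.6, 6.31 and 3.77, with Fabp4 the only one of 5 above background on male WT. Only 2 of the 5 were above background on male Tg E2 and on female Tg. The ductal, stellate and adipocyte sums all had the array order of the acinar sum. Lymphocyte markers were 5.27-fold and stellate markers 2.36-fold higher on female Tg than on male WT in summed level, where the acinar sum differed by 1.07-fold. Red cell markers were lower on male Tg E2 than on male WT, and the acinar sum was 7.19-fold higher there.

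In male Tg E2 over male Tg, the median difference was -1.87 log2 for lymphocyte markers, -3.43 for red cell markers, -0.49 for ductal markers and -0.06 for stellate and matrix markers, against -0.82 for the acinar genes. Beta cell markers had a median of -1.73 log2 in male Tg over male WT, with Ucn3 at -4.40 log2. The hormone genes Ins2 (0.71 log2), Ins1 (0.65 log2) and Iapp (0.28 log2) were higher there. The summed level of the list was 2457 on male WT and 2982 on male Tg. Of the 12 markers, 8 were at least 2-fold lower and none at least 2-fold higher there, beside 9.06% lower among all genes measured. The median of the beta cell markers was 0.61 log2 in male Tg E2 over male Tg. Of the 12, 4 were at least 2-fold higher in that pair, while Ins1 (-0.51 log2), Ins2 (-0.47 log2) and Iapp (-0.31 log2) were lower.

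**Figure D4:**
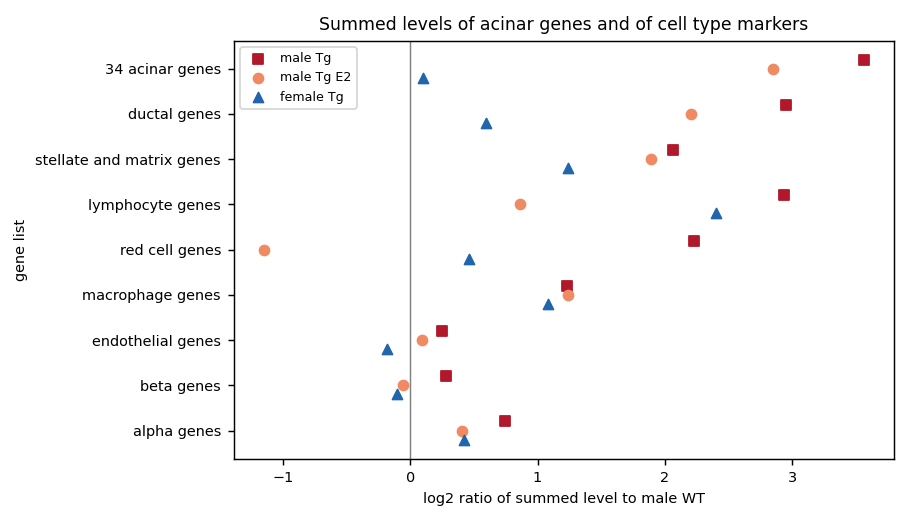
Each row is a gene list and each point 1 array; the x axis is the log2 ratio of the list's summed level to that of male WT. The acinar genes are highest on male Tg, lower on male Tg E2 and near 0 on female Tg, whereas lymphocyte and stellate genes stay well above 0 on female Tg and red cell genes lie below 0 on male Tg E2.

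The genes outside the 34 whose pattern was most like the acinar median were sought among 13813 genes well above background on all 4 arrays, by the Euclidean distance between centred log2 levels. Tead2 was the nearest (0.150 log2), with levels of -1.07 on male WT, 3.48 on male Tg, 2.73 on male Tg E2 and -0.97 on female Tg. Others among the 10 nearest were the kallikrein Klk1b21 (0.237), Krtap5-1 (0.299), Spdef (0.399), Klk1b26 (0.407), Reg1 (0.419), Klk1b5 (0.426) and Krt23 (0.443). The likeness rests on 4 arrays. Centred over them, the acinar median was -2.17 on male WT, 2.50 on male Tg, 1.59 on male Tg E2 and -1.93 on female Tg.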

How the data were processed

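Total RNA of islets was labelled with Cy3 and hybridised to 4 one-colour Agilent mouse arrays, 1 per group, all on 1 slide with 1 scan time. The deposited scanner values are background-corrected intensity on a linear scale from Feature Extraction 10.7.1.1 per the file headers, whereas the submitters' processing notes name version 9.5.1.1. Probe positions refer to mm9 per the file headers. The series' own value table holds intensity that was quantile-normalized before it was deposited, as its equal quartiles show, and it served as an alternative.

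Processed intensity was averaged over spots without an outlier flag (103 to 125 flagged per array), put on a log2 scale and reduced by the array's 75th percentile over non-control spots (410 for male WT, 230 for male Tg, 337 for male Tg E2 and 294 for female Tg). A gene was measured in a comparison when the scanner software called its probe well above background on both arrays. A 2-fold difference was counted, and 6 comparisons were made. The background is the 22290 gene names found in a RefSeq table (GRCm38.p6), treated the same way. Noise between spots, from 399 probes spotted 10 times, had a median SD of 0.0662 to 0.0756 log2. The number of arrays limits the precision.

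Genes named with every level are the largest and smallest difference of each role, all 4 transcription factors and the 3 largest and smallest of each other comparison, with up to 4 leading genes per further list, up to 2 per marker list and the 10 genes most like the acinar median; a few genes that this rule picks are not reported here. The acinar genes and all lists were chosen with earlier results of these data known. Alternatives were quantile normalization, median centring, normexp background correction (limma 3.58.1, offset 50), both together, the series' value table, no background filter, flagged spots kept, all probes of a gene, and thresholds of 1.5-fold and 4-fold. Python 3.11.15, pandas 2.3.3 and R 4.3.3 were used, and the steps were tested on simulated data.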

Additional observations from a re-analysis of the deposited data

How the results depend on the processing

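No paired analysis was possible because each group has 1 array and no replicate number, and for the same reason no replicate could be left out. The direction of the median was kept in 5 of the 6 comparisons under every alternative run. The exception is female Tg over male WT, whose median of 0.10 log2 became -0.10 after median centring, and in which 2 genes passed a 1.5-fold threshold upwards. The median of male Tg over male WT, 4.49 log2 as reported, was 3.96 after quantile normalization and after normexp with quantile normalization, 3.95 in the series' value table and 4.15 after median centring. That of male Tg E2 over male Tg, -0.82 log2 as reported, was -0.39 after quantile normalization and in the value table and -0.46 after normexp with quantile normalization. Its count of genes at least 2-fold lower, 9 as reported, was 4 in these 3 settings and after median centring, 25 at 1.5-fold and 0 at 4-fold. In the same order of quantile normalization, normexp with quantile normalization and the value table, the median was -3.67, -3.62 and -3.65 log2 in female Tg over male Tg and -3.30, -3.26 and -3.29 log2 in female Tg over male Tg E2. The cause of these shifts was not tested. In male Tg over male WT, 16 of the 33 genes counted as 2-fold higher moved by over 1.5-fold under some alternative, Ptf1a the most. No gene counted as 2-fold different changed sign in any setting run. Rbpjl ranged from -1.96 to -1.80 log2 in male Tg E2 over male Tg. Over all genes the median of male Tg over male WT moved from -0.22 to -0.56 log2 under median centring. Where 2 probes of a gene were measured in male Tg over male WT (7 genes), both had the same sign, and the pair of Clps lay furthest apart, at 2.17 log2. Single arrays of unknown mouse number limit all values.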
